A study of Mus musculus with 6 samples.

Results

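Short stretches of chromatin with a high level of H3K79me2, dimethylation of lysine 79 of histone H3, are described here in myeloid leukaemias that MN1, the product of the meningioma-1 gene, had set off in mice. The regions are the autosomal peaks (chromosomes 1 to 19) that are shorter than 10 kb and have a pileup, the depth of pooled reads over a peak, of at least 60 reads. There are 1084 of them among 18418 autosomal peaks and 18992 peaks in all. They were chosen by their width and pileup, so both are given as a description, and so are fold enrichment and q, which come from the same comparison of H3K79me2 with input. Position along the chromosomes was not part of the choice, apart from the restriction to autosomes.

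Of the 6 libraries, 3 were immunoprecipitated for H3K79me2 and 3 are inputs, made from the chromatin before any antibody was used. Both groups are leukaemic blasts sorted from the marrow of moribund C57BL/6 mice, which had received a transplant of MN1-transformed CMP cells. All carried the Dot1l f/f conditional allele, which had not been inactivated, and were kept briefly in culture in medium M3234 with FBS, Il3, Il6 and SCF. Every group is therefore an MN1 leukaemia with intact Dot1l, cultured before harvest, and no normal or Dot1l-deleted chromatin is compared here. The libraries were combined into 1 peak list with no value per library, so no spread between replicates can be given and no test between samples was possible. Read numbers per library are not given in the sources used here. Pileups run from 19 to 280.6 reads over the autosomal peaks.

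H3K79me2 is placed by DOT1L, the only well-established H3K79 methyltransferase of mammals, which lacks the SET domain found in most other lysine methyltransferases of histones. DOT1L travels with elongation factors that associate with RNA polymerase II, and the mark accumulates just downstream of the starts of transcribed genes and spreads into their bodies. In leukaemias driven by MLL fusion proteins, recruitment of DOT1L gives some target genes very broad and strong H3K79me2. MN1 is a transcriptional coregulator whose raised expression is known in acute myeloid leukaemia. Regions are given by their mm9 positions only: the list carries no gene names, and they were not matched to genes because no mm9 annotation was used here.

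Short regions formed a larger share of strong peaks by number than by sequence, as the width limit entails. The 1084 regions were 25.1% (exact binomial 95% interval 23.8% to 26.4%) of the 4326 autosomal peaks of at least 60 reads and 8.55% (8.07% to 9.05%) of the 12681 autosomal peaks shorter than 10 kb. They covered 6.87 Mb, which was 5.78% of the sequence under strong peaks and 3.16% of all marked autosomal sequence. The other 3242 strong peaks, all at least 10 kb wide, covered 111.99 Mb. The 11597 weaker short peaks covered 33.7 Mb. These intervals cover counting error only, since peaks are not independent replicates.

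Within the 1084 regions the median width was 6.32 kb, with quartiles of 4.69 and 8.13 kb. The median pileup was 77.2 reads, with quartiles of 67.6 and 94.9. Fold enrichment, deposited by the authors, divides the pileup by the control background, and its median was 6.12, with quartiles of 5.38 and 7.35. The median −log10 q of the peak caller was 40.7. Most regions therefore lay closer to the pileup limit than to the highest values: 593 had fewer than 80 reads, 279 had 80 to 100, 193 had 100 to 150 and 19 had 150 or more.

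Width was unevenly filled below the limit. Of the 1084 regions, 4 were shorter than 1 kb, 6 were between 1 and 2 kb, 167 between 2 and 4 kb, 320 between 4 and 6 kb, 284 between 6 and 8 kb and 303 between 8 and 10 kb. Among all autosomal peaks of the same width, the share that reached 60 reads was 0.14% below 1 kb, 5.38% between 2 and 4 kb, 18.03% between 4 and 6 kb and 30.6% between 8 and 10 kb. Pileup hardly rose with width inside the set: the median was 71.6 reads between 2 and 4 kb and 81.5 between 8 and 10 kb, and Spearman's rho was 0.15 across the 1084 regions, a description of points that share the same libraries and the same limits. The share of short regions fell as the pileup rose, from 33.8% of the 1752 autosomal peaks with 60 to 80 reads to 15.9% of the 1211 with 100 to 150 reads.

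**Figure D1:**
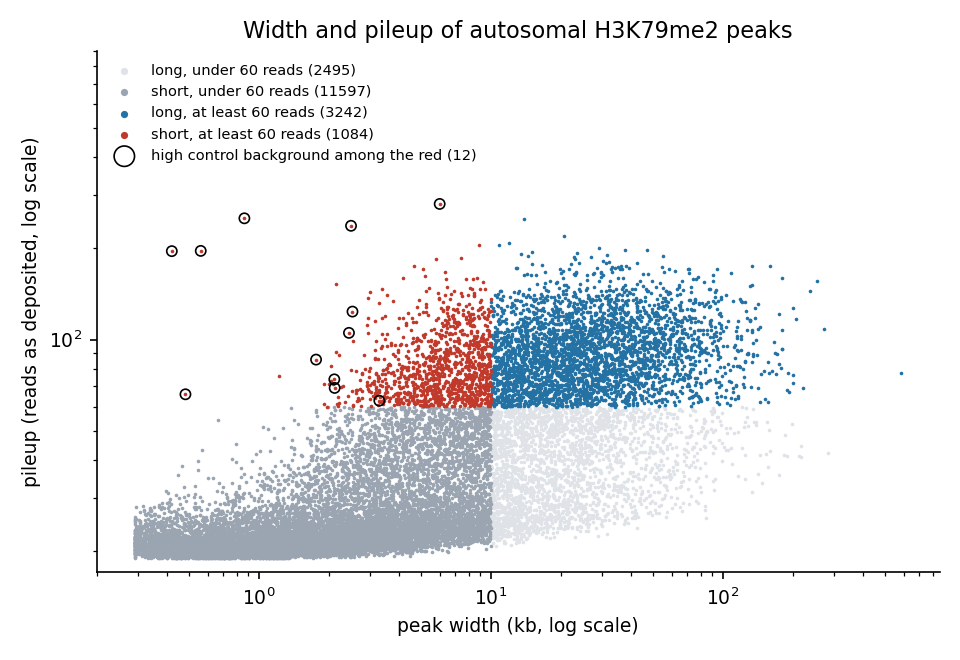
Width (x axis, kb, log scale) and pileup (y axis, reads as deposited, log scale) of each autosomal peak, coloured by whether it is shorter than 10 kb and whether it reaches 60 reads; rings mark the 12 short strong regions over a high control background. The 1084 red points fill the corner above 60 reads and below 10 kb, most of them wider than 2 kb, and the 4 red points below 1 kb are all ringed.

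Peaks just inside and just outside the limits of the choice are given as a description. Just inside the width limit, the 3 widest regions measured 9991, 9992 and 9996 bp, with pileups of 70.1, 95.6 and 62 reads. Just outside it lay strong peaks of 10008, 10009 and 10010 bp with 75.9, 128.8 and 79.04 reads. At the pileup limit, the lowest regions had 60.04, 60.11 and 60.12 reads and folds of 4.57, 5.17 and 4.74. The highest short peaks left out had 59.98, 59.97 and 59.96 reads and folds of 4.76, 4.71 and 4.96. Only the 3 peaks nearest to each side of a limit are compared, and fold follows largely from pileup, so a natural break was not tested.

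Nearly all of the short strong regions were well enriched over input, and a small set was not. A fold of at least 4 was reached by 1073 of the 1084 regions, against 29.5% of all autosomal peaks, a −log10 q of at least 10 by 1075, against 36.6%, and a −log10 q of at least 20 by 1073, against 27.3%. Pileup chose the regions and enters fold and q, so nothing is read from these shares. A fold of at least 8 was reached by 194 regions, against 6.69% of autosomal peaks, and a fold of at least 10 by 50, against 2.05%. Among the 3242 strong peaks of at least 10 kb, 1038 reached a fold of 8 and 328 a fold of 10. The 11 regions that missed a fold of 4 had folds between 1.34 and 2.49, and the next region stood at 4.18, with no value in between. Their −log10 q ran from 2.71 to 11.02, whereas the lowest −log10 q of the other 1073 was 22.2.

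The low folds stood over a high control background. This background was computed from pileup and fold, so a low fold at a high pileup gives a high background by construction. The lowest background of the list was 10.5 reads, and the median under the 1084 regions was 1.12 times that value. A background of at least 2 times the lowest lay under 12 of the 1084 regions, or 1.11% (0.573% to 1.93%). It lay under 1 of the 3242 long strong peaks and 4 of the 11597 weaker short peaks. Pileup exceeded background in every autosomal peak, so a peak below the pileup limit could not lie over the highest backgrounds. The contrast with weaker short peaks thus follows largely from that limit, and nothing is read from it. Of the 17 autosomal peaks over such a background, 12 were short and strong. The other 1072 regions had at most 1.54 times the lowest background. All 11 regions with a fold under 4 were among the 12.

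**Figure D2:**
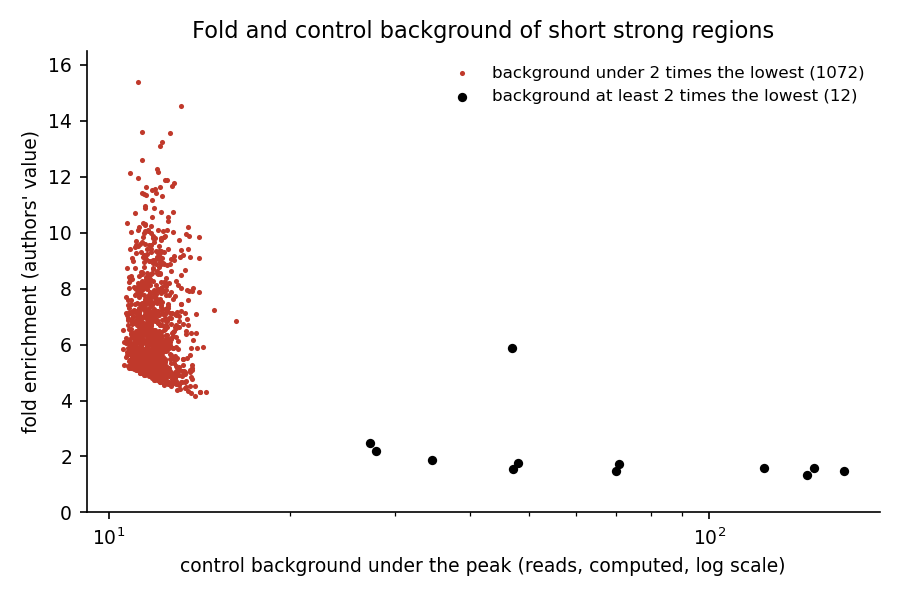
Fold enrichment (y axis, the authors' value) against the control background computed under the peak (x axis, reads, log scale) for the 1084 short strong regions. The 1072 red points have folds of 4.18 to 15.4 over a narrow band of backgrounds, and 11 of the 12 black points lie at folds of 2.49 or lower over backgrounds of 27.2 to 167.5 reads.

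The 12 regions over a high control background lay on 7 chromosomes, several of them side by side. On chromosome 2 a pair 1.89 kb apart, from 98502298 to 98503162 and from 98505057 to 98507549, had pileups of 251.5 and 237.6 reads over backgrounds of 167.5 and 149.5 reads. Their folds were 1.499 and 1.58. The nearest other peaks lay 4.22 Mb to the left of the pair and 2.91 Mb to its right. Near the start of chromosome 9, 3 regions, from 2999878 to 3002319, from 3021927 to 3022408 and from 3025277 to 3027388, had folds of 1.49, 1.88 and 1.56. Both the region from 3080567 to 3083095 on chromosome 17 and that from 3025765 to 3027526 on chromosome 11 were the first peak of their chromosome, with folds of 1.74 and 1.77. In all, 5 of the 12 started within the first 4 Mb of a chromosome, as did 15 of the 1084.

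The remaining 5 of these regions were scattered. The shortest of all 1084, 421 bp on chromosome 15 from 74917041 to 74917461, had 195.9 reads at a fold of 1.34, the lowest fold of the set. A region of 561 bp on chromosome 9, from 35112678 to 35113238, had 196.3 reads at a fold of 1.59. A region on chromosome 4 from 146823491 to 146826790 had 62.8 reads at a fold of 2.21, and one on chromosome 1 from 87492978 to 87495096 had 69.2 reads at a fold of 2.49. These 4 therefore had little enrichment, whether the pileup was high or near the limit.

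The region with the highest pileup in the list was the exception among them. This region of chromosome 1, from 90168047 to 90174054, measured 6.01 kb and had 280.6 reads, a −log10 q of 132.97 and a fold of 5.88. Its background of 46.9 reads was 4.46 times the lowest. The peak 1.23 kb to its left, 10.2 kb wide and so not in the set, had 120.9 reads over a background of 43.98 reads and a fold of 2.71. The raised background thus extended over both peaks, and the enrichment of the short one exceeded that of its neighbour.

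Pileup and fold ranked the top regions similarly, apart from those over a high control background. This is largely by construction, since fold divides pileup by a background that was at most 1.54 times the lowest in the other regions. Among the 10 regions with the highest pileups, 5 lay over a high control background, and the other 5 were also among the 10 with the highest folds. All 4 regions shorter than 1 kb lay over a high background. The shortest region without one, 1217 bp on chromosome 1 from 24685576 to 24686792, had 75.5 reads and a fold of 6.37. The next shortest measured 1904 and 1905 bp, on chromosomes 8 and 11, with 71.4 and 61.3 reads and folds of 5.67 and 5.17. Of the 1072 regions without a high background, 5 were shorter than 2 kb.

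Enrichment was highest in a short region of chromosome 18 between 54021905 and 54029298, which had 186.3 reads at a fold of 15.4. To the right of the chromosome 18 region, 1.22 kb away, lay a peak of 385 bp with 21.3 reads, and to its left no peak for 117.7 kb. The second, on chromosome 1 from 193212026 to 193220909, was 8.88 kb wide, with 205.2 reads, a fold of 14.5 and the highest −log10 q of the set, 170.2. It stood 1.18 kb from a peak of 29.6 kb with 101.6 reads, so the short region had the higher pileup of the adjoining pair.

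Folds of 13 and above were also reached by 4 further regions. A fold of 13.6 was reached on chromosome 6 between 120767215 and 120773556, at 166.9 reads, and on chromosome 7 between 25669598 and 25675413, at 184.3 reads. The chromosome 16 region, between 78572195 and 78576843, had 174.5 reads at a fold of 13.2, and the chromosome 8 region, between 36553460 and 36558558, had 171.0 reads at a fold of 13.1. These 2 were 4.65 and 5.10 kb wide. Their nearest peaks, 1.57 and 1.67 kb away, were only 663 and 654 bp wide with 25.6 and 25.2 reads. The last 4 of the 10 highest folds ran from 12.1 to 12.6, on chromosomes 5 and 14 and, for 2 regions, on chromosome 10.

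The highest short region of an autosome had its lowest value on chromosome 19. There the region from 47667532 to 47670913 had 117.6 reads at a fold of 9.29. It lay 2.48 kb from a strong peak of 10.8 kb with 205.7 reads. On chromosome 13 the highest region, from 30630778 to 30637218, had 126.5 reads and a fold of 9.41 and stood 284.0 kb from the nearest peak. On chromosomes 3, 4, 5, 10, 11, 12 and 14 the highest pileup ran from 144.7 reads on chromosome 11 to 159.25 on chromosome 14. On chromosome 17 the highest, from 28465080 to 28468865, was 3.79 kb wide, with 134.1 reads and a fold of 10.6.

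Short strong regions stood farther from other marking than weaker short peaks did in the list as deposited, but not once only better enriched neighbours were counted. The median distance to the nearest peak of any strength was 9.95 kb (95% interval from exact binomial ranks 8.92 to 11.03) for the 1084 regions, 2.70 kb (2.62 to 2.79) for the weaker short peaks and 5.41 kb (4.91 to 5.89) for the long strong peaks. No other peak lay within 50 kb of 15.4% (13.3% to 17.7%) of the short strong regions, against 5.81% (5.39% to 6.25%) of the weaker short peaks and 11.4% (10.4% to 12.6%) of the long strong ones. Within 100 kb the shares without another peak were 8.12%, 2.81% and 6.14%. With the same 3 groups of peaks but only neighbours of a −log10 q of at least 10 counted, the medians were 25.9 kb for the short strong regions, 27.6 kb for weaker short peaks and 31.2 kb for long strong peaks. With only neighbours of a fold of at least 4 they were 32.2, 38.1 and 42.2 kb. The short strong regions then had the smallest median distance of the 3. Limiting the compared peaks as well to a −log10 q of at least 10 left 1192 of the 11597 weaker short peaks, with a median of 23.96 kb against 25.4 kb for 1075 short strong regions. The differences were not tested, since distances come from the same peak calls and regions are not replicates.

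Measured only against other peaks of at least 60 reads, the short strong regions had the smallest median distance. The median distance to the nearest strong peak was 43.8 kb (39.1 to 48.4) for the short strong regions, 57.7 kb (54.8 to 60.7) for the weaker short peaks and 55.6 kb (51.6 to 59.8) for the long strong ones. Another strong peak lay within 10 kb of 17.99% of the short strong regions, 21.2% of the weaker short peaks and 15.8% of the long strong ones. Within 3 kb the shares were 5.44%, 9.82% and 5.40%. In the list as deposited, short strong regions thus had less weak marking beside them, and at the median they were nearer to strong marking. At 10 kb or less, however, a strong neighbour was less frequent than for weaker short peaks.

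The share of flanking positions that fell inside another peak gives the list as deposited on a finer scale. At 2 kb outside the edge, 8.49% of positions around the short strong regions were marked, against 21.9% around weaker short peaks and 13.6% around long strong ones. At 10 kb the shares were 16.6%, 31.6% and 20.02%, and at 100 kb 20.7%, 21.9% and 19.4%. Over the whole autosomal span between first and last peaks 9.08% was marked, so marking was denser than that average around every kind of peak at 10 kb and beyond. On the left and the right of the short strong regions the shares at 10 kb were 17.6% and 15.6%.

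**Figure D3:**
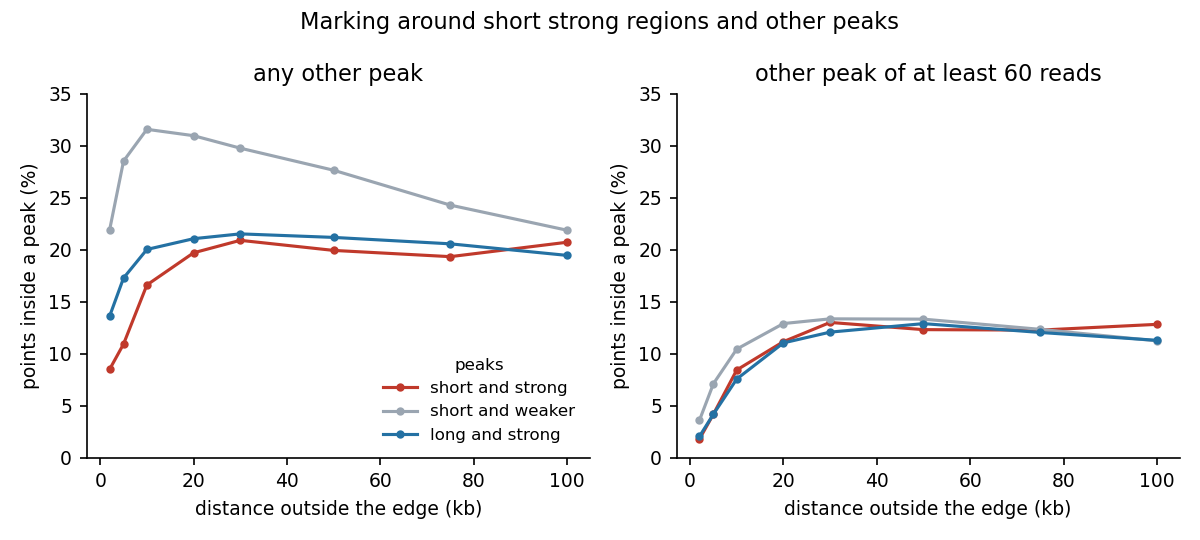
Percent of positions inside another peak (y axis) at increasing distance outside the edges of a peak (x axis, kb), for short strong regions, weaker short peaks and long strong peaks, with any other peak counted on the left and only other peaks of at least 60 reads on the right. Around short strong regions the left-hand share rises from 8.49% at 2 kb to 20.7% at 100 kb and is the lowest of the 3 kinds of peak up to 75 kb.

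Fewer of the short strong regions than of the other peaks adjoined another peak within 3 kb in the list as deposited. There were 266 such regions, 24.5% (22.0% to 27.2%), against 53.2% (52.3% to 54.1%) of the weaker short peaks and 37.2% (35.5% to 38.9%) of the long strong peaks. The adjoining peak had fewer than 60 reads for 208 of the 266, 78.2%, against 83.7% for weaker short peaks and 86.2% for long strong ones, so weak neighbours were usual for all 3 kinds. It was shorter than 1 kb in 22.2%, against 17.95% and 18.8%, and itself long and strong in 13.5%, against 13.4% and 10.7%. In 30 of the 266, 11.3%, the neighbour had the higher pileup, against 62.7% for weaker short peaks and 6.80% for long strong ones. Pileup defined these groups, so nothing is read from these shares. Peaks lay within 3 kb on both sides of 17 of the 1084 regions.

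Joining all peaks at most 3 kb apart showed how many of the regions stayed short. The 818 regions with no neighbour that close were left as they were. Of the 266 others, 134 became part of a region of at least 10 kb that still averaged at least 60 reads, 70 part of a long region with a lower average and 25 part of a short region with a lower average. These averages weight the deposited pileup of each joined peak by its width. They leave out the bases between the peaks, so they are not averages over the whole joined region. After joining, 853 regions met the same limits, and 855 of the original 1084 lay inside one of them.

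Median pileup and enrichment differed little between regions that stood alone and regions that did not. Regions with a neighbour within 3 kb had a median pileup of 76.5 reads and a median fold of 6.09. The 88 regions with no peak within 100 kb had medians of 80.2 reads and 6.29. Median widths were 6.62 and 6.24 kb. Across the 1084 regions Spearman's rho between pileup and the distance to the nearest peak was 0.0017, a description of points from the same pooled libraries. Of the 12 regions over a high control background, 7 had a neighbour within 3 kb and 1 was among the 88.

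The most isolated short strong region, on chromosome 14 between 115438258 and 115447244, was 8.99 kb wide and had 126.01 reads, a fold of 10.1 and a background of 1.10 times the lowest. No other H3K79me2 peak lay within 3.07 Mb, and on its left side none for 8.80 Mb. Next came a region on chromosome 15 from 60649603 to 60657946, with 87.5 reads, a fold of 7.09 and 1157 kb to the nearest peak. The third, on chromosome 19 from 31157505 to 31162088, had 72.2 reads, a fold of 5.82 and 995 kb to the nearest peak. All 3 were single islands of enriched chromatin over a control background near the lowest of the list.

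At the other extreme, the region nearest to another peak lay on chromosome 13 from 37574847 to 37580302, 1.17 kb from a peak of 4.71 kb with 42.2 reads. It had 69.1 reads and a fold of 5.84. The smallest distance between any autosomal peaks was 1169 bp, so this region and those that follow lay close to the floor of the list. A region on chromosome 9 from 46091154 to 46095005, with 72.7 reads, stood 1.17 kb from a peak of 9.26 kb with 59.6 reads. One on chromosome 6 from 86469766 to 86476186 had 158.4 reads and a fold of 11.9, and stood 1.17 kb from a peak of 17.2 kb with 33.5 reads. In each of these 3 pairs the neighbour had fewer than the 60 reads required by the choice. The short strong region therefore had the higher pileup by construction.

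**Figure D4:**
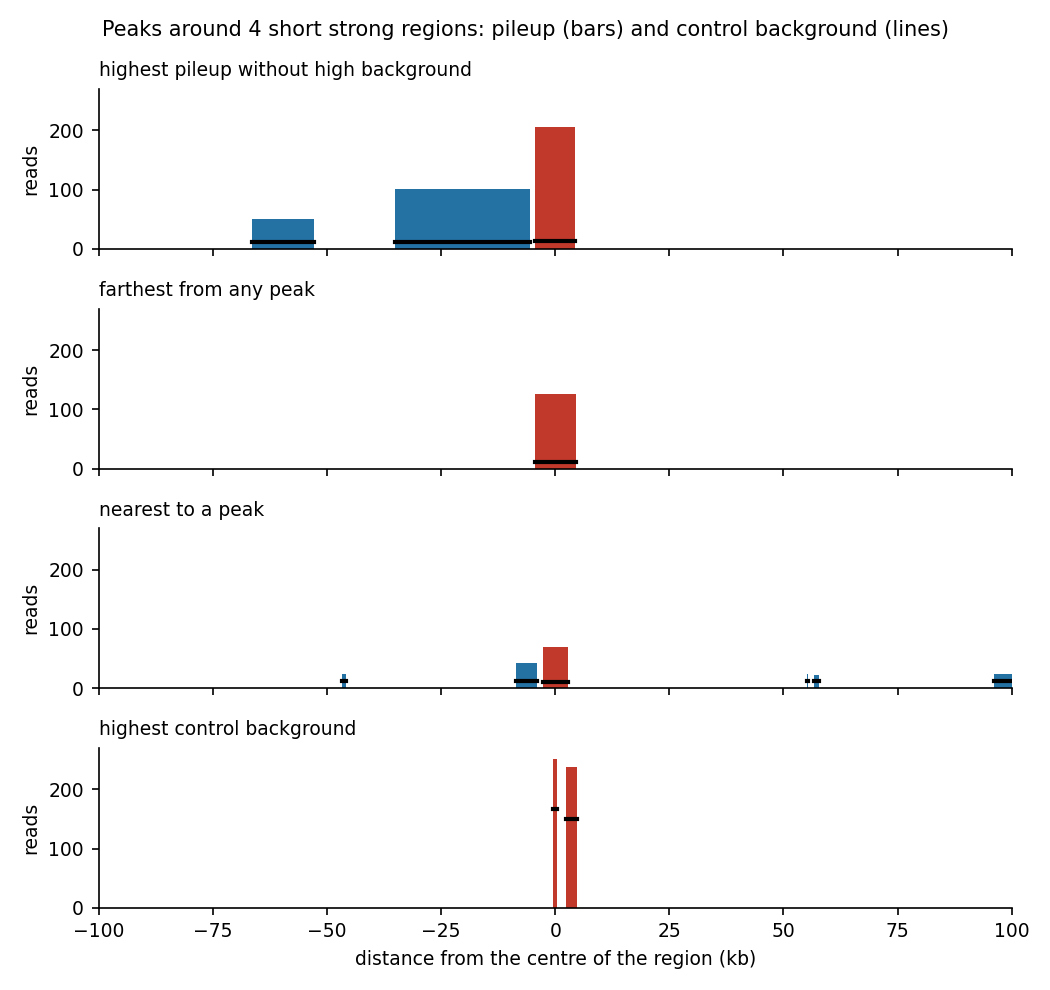
Pileup (bars, reads) and computed control background (black lines, reads) of the peaks within 100 kb of the centres of 4 short strong regions, with distance from the centre on the x axis (kb); red bars are short strong regions and blue bars other peaks. The region farthest from any peak stands alone at 126.01 reads over a low background, whereas the 2 red bars of the bottom panel reach 251.5 and 237.6 reads over backgrounds of 167.5 and 149.5 reads.

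Most short strong regions had no other short strong region within 100 kb, and some gathered in groups. Regions at most 100 kb apart were counted as a group. Of the 1084, 747 were in no group and 337 fell into 144 groups of at least 2. Other peaks did not count towards a group, and 91.9% of the 1084 had some other peak within 100 kb. Only 8 groups held 4 or more, and 4 of these were on chromosome 10. The fullest group lay on chromosome 10 from 127757878 to 128063637, where 6 short strong regions and 12 other peaks covered 45.4% of 305.8 kb. Its regions had 63.6 to 135.3 reads and folds of 5.12 to 10.1. The 2 strongest, from 127995449 to 128004511 and from 128060356 to 128063637, had 135.3 and 132.3 reads and were 9.06 and 3.28 kb wide.

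The second group, also on chromosome 10, ran from 79373227 to 79520499 and held 5 regions of 70.8 to 100.5 reads and 5.12 to 6.82 kb. Among its 9 peaks, 6 were strong, and together they covered 53.8% of its span. Further groups of 4 on this chromosome ran from 79631174 to 79786725, with up to 143.3 reads, and from 80783989 to 80851264, with up to 107.9 reads. The group from 79631174 begins just over 100 kb beyond the second group, so the 100 kb limit decides whether they are counted apart. The group from 80783989 lies much farther along, with a group of 3 from 80287635 to 80394879 in between. The third group, on chromosome 15 from 78744443 to 78975956, held 5 regions of 62.02 to 101.2 reads among 15 peaks, which covered 29.5% of its span. In this group no long peak reached 60 reads, since all 5 of its strong peaks were short.

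Short regions formed between 15.8% and 30.4% of an autosome's strong peaks. Chromosome 18 had the lowest share, 21 of 133 (exact interval 10.1% to 23.1%), and chromosome 16 followed with 26 of 141, 18.4% (12.4% to 25.8%). Chromosome 7 had the highest, 87 of 286 (25.1% to 36.1%), followed by chromosome 15 with 54 of 184, 29.3% (22.9% to 36.5%). The intervals of chromosomes 18 and 7 did not overlap, but these are the lowest and highest of 19 autosomes, picked after ranking. The chromosome 7 interval began at 25.14%, just above the share over all autosomes, 25.06%. The intervals of the other 17 autosomes held that share. Differences between autosomes were not tested. Chromosomes 7, 16 and 18 held none of the 12 regions over a high control background.

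**Figure D5:**
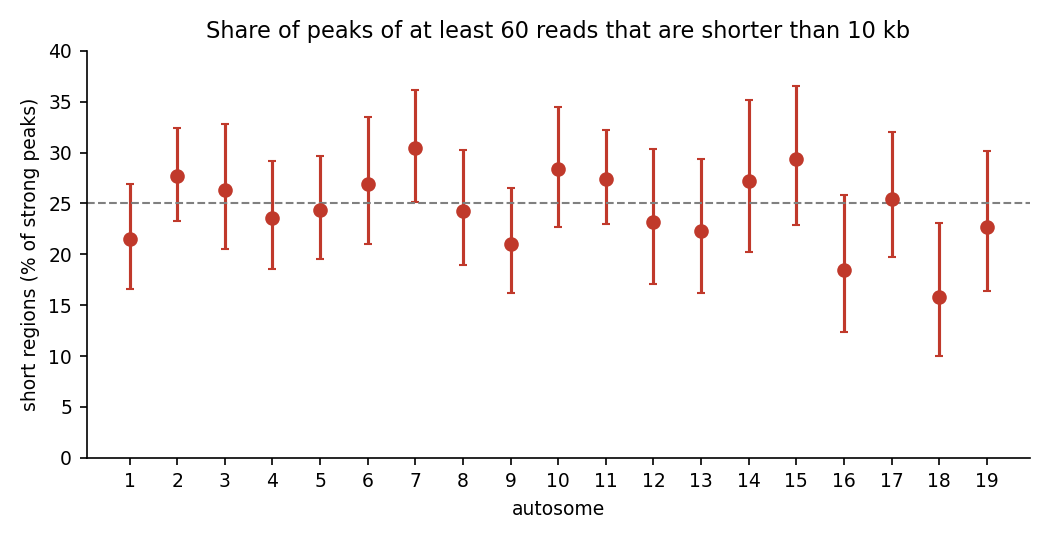
Share of the strong peaks of each autosome that are shorter than 10 kb (y axis, percent; bars are exact binomial 95% intervals, counting error only), with the share over all autosomes as a dashed line. Chromosome 18 lies lowest at 15.8% with an interval that ends below the line at 25.1%, and chromosome 7 lies highest at 30.4%.

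The density of short strong regions ran from 2.40 per 10 Mb on chromosome 18 to 8.86 on chromosome 11, with a median over the 19 autosomes of 4.46. Per 1000 protein-coding genes of a RefSeq table of GRCm38.p6, olfactory and vomeronasal receptor genes left out, it ran from 40.4 on chromosome 16 to 73.5 on chromosome 10, with a median of 54.5. Medians per chromosome varied little in pileup, from 74 reads on chromosome 19 to 83.6 on chromosome 10, and more in width, from 4.81 kb on chromosome 18 to 7.17 kb on chromosome 10. Chromosome 10 was thus high in regions per gene, in median pileup and in median width, and chromosome 18 low in density and width.

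Chromosomes with more genes per Mb held more short strong regions per Mb. Over the 19 autosomes Spearman's rho of their density was 0.87 with genes shorter than 10 kb and 0.85 with longer genes (Pearson's r 0.84 and 0.86). For long strong peaks rho was 0.75 with the short genes and 0.85 with the longer ones (r 0.72 and 0.92). The share of strong peaks that were short had a rho of 0.48 (r 0.60) with the share of genes shorter than 10 kb, which ran from 21.3% on chromosome 1 to 39.8% on chromosome 17. These are descriptions over chromosomes, which share libraries and differ in base composition. Gene numbers are from another build than the peaks, and no gene was matched to a peak.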

How the data were processed

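The submitters' processing notes name MACS2, bedtools 2.25.0, SAMtools, GSNAP and CASAVA 1.8.2 with build mm9, without settings. MACS2 calls peaks by comparing treated reads with a control background. Per the file headers, the deposited list gives for each peak its position, pileup signal, fold enrichment (a ratio) and −log10 p and q; scaling or averaging of pileups over a peak is not stated there. All are the authors' values per peak and serve here to rank and select peaks; the −log10 p was left aside.

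The control background was computed as (pileup + 1) / fold − 1, as MACS2 usually adds 1 to both. Distances count the bases between peaks, and the smallest between autosomal peaks was 1169 bp. Intervals are exact binomial at 95%. Computations were tested on simulated data. The regions and the measures were chosen with earlier results of these data known. Named regions are the highest, lowest, shortest, most and least isolated, those at the limits, those over a high background, the fullest groups and the highest of each autosome; some of the last are given only by their range. Planned gene lists, gene starts and sequence content need an mm9 annotation or genome and were not analysed here, so no sequence is printed. The work ran in Python 3.11.15 with pandas 2.3.3, scipy 1.17.1, numpy 2.4.6 and, for plots, matplotlib 3.10.9.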

Additional observations from a re-analysis of the deposited data

How the results depend on the processing

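No paired analysis was possible because values exist for the pool alone; for the same reason no replicate could be left out. Values below are in the order number of regions, median width, median pileup, median fold, median distance to the nearest peak, share within 3 kb of a peak, and lowest and highest share of an autosome's peaks (as reported 1084, 6320 bp, 77.2 reads, 6.12, 9948 bp, 24.5%, 3.37% and 8.04%), and only those that left the interval of the reported value, or moved a count by over 1.5 times, are given. With a width limit of 8 kb the median width was 5489 bp and the highest share 5.82%; with 12 kb they were 7240.5 bp and 9.95%. With 5 kb the values were 312, 3823 bp, 73.2 reads, 5.81, 11640 bp, 21.8%, 0.928% and 2.48%. A pileup minimum of 50 gave 68.6 reads, a fold of 5.45 and a highest share of 10.8%. A minimum of 80 gave 491 regions, 6682 bp, 97.04 reads, 7.54, and shares of 1.36% and 3.78%. Keeping only peaks with a −log10 q of at least 10 moved the distance to 25413 bp, the share within 3 kb to 8.74% and the autosomal shares to 10.5% and 19.3%; keeping folds of at least 4 moved them to 31341 bp, 6.34%, 12.8% and 23.6%. Both drop weak neighbours and shrink the number of peaks. The median distance of the short strong regions exceeded that of weaker short peaks by 7245 bp as reported, by 1456 bp when limited by q in this way, by 392.5 bp when limited by fold and by 8961.5 bp with the 5 kb limit. Against long strong peaks the difference was 4539.5 bp as reported, 5638.5 bp with the 5 kb limit, and turned to -5789 bp when limited by q and -10894.5 bp when limited by fold. These limits change both the neighbours counted and the peaks compared. With only the neighbours limited, the distance was 25898 bp by q and 32174.5 bp by fold, and the differences turned to -1654 and -5880.5 bp against weaker short peaks and to -5304 and -10061 bp against long strong peaks. These differences were added after seeing the data. Joining peaks at most 3 kb apart moved the distance to 16458 bp and the share within 3 kb to 0%, by construction. Adding the 25 X and Y peaks of the same width and pileup moved none of these. The 12 regions over a high background became 3 at a −log10 q of at least 10, 1 at a fold of at least 4, 7 after joining, and 0 when such regions were left out; with a limit of 1.5 or 3 times the lowest background, chosen after seeing the data, they were 13 and 10. Of 118 recomputed values 71 stayed within their bounds. For the differences in distance the bound was a separate one, taken from the width of the interval of the reported distance. Of the 118, 38 were chosen after seeing the data, among them these differences and all recomputed counts over a high background. Alternatives on gene starts and sequence were not run, as they need an mm9 reference. The list starts at 19 reads, so weaker marking beside these regions was not detectable at this depth.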
